A study of Homo sapiens with 9 samples.

Results

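The 30 genes described here make cholesterol or set its supply: 19 enzymes that build cholesterol from acetyl-CoA, 5 genes of the SREBP switch that drives them, and 6 genes of sterol uptake, transport and efflux. They were taken from a fixed list of symbols, chosen with earlier results of these data known. All 30 matched a row among the 63677 gene IDs counted. The cells are K562, a human erythroleukaemia line derived from chronic myeloid leukaemia. The P95H group holds 4 CRISPR clones (P9, P15, P22 and P38) in which proline 95 of the splicing factor SRSF2 is replaced by histidine, the WT group holds 4 CRISPR clones with wild-type SRSF2 (W19, W33, W36 and W42), and the parental K562 line is 1 library. The labels name no other treatment, and they leave unsaid how many alleles carry P95H and whether the clones go back to independent edits. Each clone gave 1 library of polyadenylated RNA, and the p-values rest on how much clones of a group varied.

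Cholesterol synthesis runs from acetyl-CoA through mevalonate to farnesyl diphosphate, a branch point that also feeds protein prenylation, dolichol and coenzyme Q. From there squalene is made, oxidised and closed into lanosterol, which a chain of demethylases, reductases and isomerases turns into cholesterol. When membrane sterol is low, SCAP carries the SREBP proteins from the endoplasmic reticulum to the Golgi, where they are cut and freed to switch on these genes, and when sterol is high the INSIG proteins hold SCAP back. Oxidised sterols activate the LXR receptors, which raise cholesterol export and curb lipoprotein uptake.

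Reads in genes came to 24546255 to 35477328 per library, and the floor, set at 3 counts, was 0.0846 to 0.122 CPM (read counts scaled for library size by TMM), which allows for counting error only. SRSF2 stood at 444 to 578 CPM in P95H clones and 448 to 507 CPM in WT clones, and the counts do not separate its alleles. All 9 erythroid markers were at 1 CPM or more on average, with sums of 2188 to 6531 CPM in P95H clones, 2191 to 4606 CPM in WT clones and 2979 CPM in the parental library. Megakaryocyte markers (2 of 6 at 1 CPM or more) summed to 37.3 to 57.3 CPM in P95H clones and 19.4 to 28.3 CPM in WT clones, with GP9, PF4 and PPBP at or under 3 counts in every library, and their part in the results below was not tested. The sums overlapped between the groups for myeloid markers (16.2 to 59.7 CPM in P95H clones, 16.7 to 28.5 CPM in WT clones), lymphoid markers (4.42 to 10.2 and 6.29 to 10.9 CPM) and markers of fibroblasts and epithelia (1.56 to 7.20 and 2.80 to 10.8 CPM), and MPO, ELANE, S100A8, MS4A1, LUM, KRT5 and KRT14 were at or under 3 counts throughout. W33 and P22 stood apart: the SD of their log2 levels against the mean of the other clones of their group was 0.71 and 0.66, against 0.36 to 0.58 for the other clones.

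RefSeq promoters (build GRCh38.p14, 250 bases before to 50 bases after a start site) were found for 27 of the 30 genes, in 36 windows. They were searched on both strands for the sterol regulatory element, which binds SREBP, as TCACNCCAC, and for the CCAAT box, which binds NF-Y, a partner of SREBP, as CCAAT. ACAT2, FDFT1 and SQLE had no window. SREBF2 is shown as the 1 member with a match to TCACNCCAC. HSD17B7 and DHCR7 are shown as enzymes in which the groups did not overlap, and LSS as the step after SQLE. DHCR7 had another window, chr11:71448994-71449293, in which none of the motifs searched was found. Capitals mark the matches on either strand (ATTGG is CCAAT read from the other strand).
SREBF2, chr22:41832855-41833154, plus strand: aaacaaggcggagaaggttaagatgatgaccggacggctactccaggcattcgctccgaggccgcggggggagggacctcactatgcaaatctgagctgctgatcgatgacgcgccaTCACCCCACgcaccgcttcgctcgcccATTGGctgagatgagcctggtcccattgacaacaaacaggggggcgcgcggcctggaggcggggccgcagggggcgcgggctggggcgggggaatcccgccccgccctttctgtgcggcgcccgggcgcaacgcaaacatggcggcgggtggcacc
HSD17B7, chr1:162790452-162790751, plus strand: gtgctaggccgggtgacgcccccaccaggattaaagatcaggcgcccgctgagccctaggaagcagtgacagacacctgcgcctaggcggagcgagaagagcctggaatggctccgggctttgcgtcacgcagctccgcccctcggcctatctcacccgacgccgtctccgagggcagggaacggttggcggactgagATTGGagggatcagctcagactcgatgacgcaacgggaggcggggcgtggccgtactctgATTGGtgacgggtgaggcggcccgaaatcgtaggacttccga
LSS, chr21:46228725-46229024, minus strand: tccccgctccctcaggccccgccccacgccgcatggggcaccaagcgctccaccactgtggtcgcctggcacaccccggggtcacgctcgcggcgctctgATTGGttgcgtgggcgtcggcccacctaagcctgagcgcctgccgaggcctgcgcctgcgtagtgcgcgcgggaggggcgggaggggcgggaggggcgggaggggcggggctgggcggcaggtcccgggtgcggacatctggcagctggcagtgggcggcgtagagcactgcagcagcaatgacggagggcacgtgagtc
DHCR7, chr11:71448344-71448643, minus strand: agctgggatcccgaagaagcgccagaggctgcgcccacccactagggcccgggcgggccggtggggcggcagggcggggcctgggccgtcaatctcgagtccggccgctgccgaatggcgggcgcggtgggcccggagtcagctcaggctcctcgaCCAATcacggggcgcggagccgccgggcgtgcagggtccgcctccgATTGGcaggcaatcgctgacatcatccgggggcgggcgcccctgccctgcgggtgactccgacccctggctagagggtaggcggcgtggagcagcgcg

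The TCACNCCAC match in the SREBF2 window began at base -133 from the start site. TCACNCCAC was present in 396 of 35116 RefSeq promoter windows (1.13%). CCAAT was present in 20 of 36 member windows, from 18 of 27 genes, and in 34.6% of all windows. The GC box GGGCGG stood in 31 of 36 member windows and 45% of all windows, and the E-box CACGTG in 6 of 36 and 7.26%. A match says only that these letters are in the window. A missing match says only that this exact pattern is absent, and looser forms of the sterol regulatory element were not searched.

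By reads per kilobase of exon, with all annotated exons of a gene merged, ACAT2 and HMGCS1, the first enzymes of the pathway, stood highest. They were at 64.7 and 64.4 CPM per kb averaged over the 8 clones. FDPS followed at 54.8, LBR at 54.2, EBP at 52.4, SQLE at 51.8 and FDFT1 at 45.3 CPM per kb, and among these neighbours in the order the ranges of the clones overlapped. Far below them stood HSD17B7 at 2.52, INSIG2 at 2.43 and CYP51A1 at 0.44 CPM per kb. The order at the top depends on the length used. FDPS had 3718 bases of merged exons but 2017 in its longest transcript, and ACAT2 4299 and 3180. ABCA1, the cholesterol exporter that LXR induces, had 0 to 6 reads per library and did not pass the filter on low counts, which left 29 members tested.

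Enzymes of the pathway tended to stand lower in the P95H clones, but no member passed the test. Of 19 enzymes, 17 had a log2 difference (P95H minus WT) below 0, which is 89.5%, against 47.9% of all 18173 genes tested, and the median was -0.38 against 0.01. These shares are a description only. The members were chosen with earlier results of these data known, and enzymes measured in the same libraries are not independent counts. edgeR's quasi-likelihood test with Benjamini-Hochberg adjustment called 0 of 29 members and 0 genes in all (0%). At an unadjusted p under 0.05, 7 members were lower (5.65% of all genes) and 2 higher (6.07%). DESeq2 called 2 members, HSD17B7 and DHCR7 (1.44% of all genes called), and limma-voom with quality weights 1, HSD17B7 (0.325%). In bulk RNA, fewer cells of a type and less RNA per cell cannot be told apart.

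**Figure D1:**
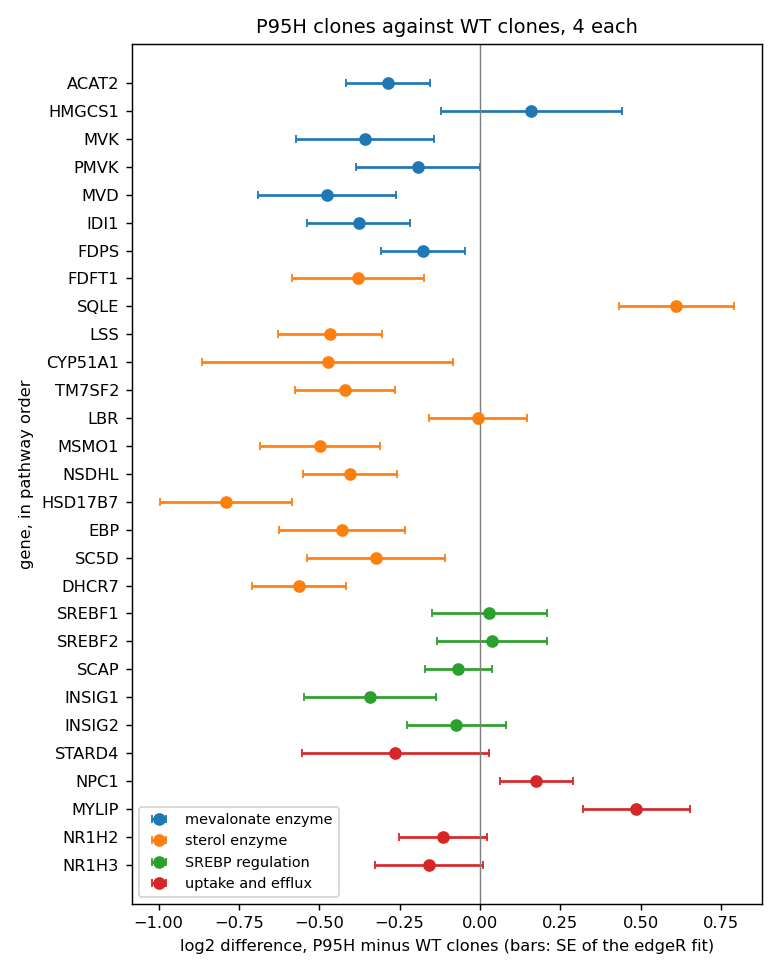
Log2 difference of each gene between the 4 P95H and the 4 WT clones (x axis; points: edgeR estimate, bars: its SE), in pathway order down the page and coloured by role. Among the enzymes, 17 of 19 points lie left of 0, HSD17B7 is farthest left at -0.79, and SQLE is at 0.61.

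In the mevalonate part of the pathway, 6 of 7 enzymes had a difference below 0, with a median of -0.29. IDI1, the isomerase that makes dimethylallyl diphosphate, was at 96.9, 125, 76.7 and 97.9 CPM in P9, P15, P22 and P38, against 134, 107, 126 and 149.7 CPM in W19, W33, W36 and W42 (log2 -0.38, SE 0.16, edgeR adjusted p = 0.409). P15 alone reached into the WT range, and W33 was the lowest WT clone. MVD, the decarboxylase that ends the mevalonate steps, was at 75.7, 106, 52.6 and 92.6 CPM in P9, P15, P22 and P38, against 104, 148, 114 and 91.8 CPM in W19, W33, W36 and W42 (log2 -0.48, SE 0.21). ACAT2, which joins 2 acetyl-CoA units, had 211 to 309 CPM in P95H clones and 287 to 348 CPM in WT clones (log2 -0.29). For both genes the groups overlapped, through P15 for ACAT2 and through P15 and P38 for MVD.

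For the kinases of mevalonate and FDPS the groups overlapped. MVK had 14.6 to 29.5 CPM in P95H clones and 21.2 to 29.7 CPM in WT clones (log2 -0.36, SE 0.21; -0.60 without P15), and PMVK 13.5 to 17.9 and 13.7 to 24.9 CPM (log2 -0.19, SE 0.19; -0.01 without W33, -0.32 without W42 and -0.12 without P38). FDPS, farnesyl diphosphate synthase at the branch point, had 171 to 236 CPM in P95H clones and 199 to 249.7 CPM in WT clones (log2 -0.18, SE 0.13; -0.30 without P15 and -0.11 without W33). HMGCS1, HMG-CoA synthase, was the most variable of the 7: 251, 523, 313 and 187 CPM in P9, P15, P22 and P38, against 296, 241, 260.1 and 351 CPM in W19, W33, W36 and W42. Its log2 difference of 0.16 (SE 0.28) was -0.19 without P15.

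Of the 12 enzymes after farnesyl diphosphate, 11 had a difference below 0, with a median of -0.43. HSD17B7, the keto reductase of sterol demethylation, was at 8.77, 12.7, 6.84 and 6.81 CPM in P9, P15, P22 and P38, against 14.8, 15.9, 15.1 and 15.2 CPM in W19, W33, W36 and W42. Every P95H clone lay below every WT clone, and the 4 WT clones lay within about 1 CPM of each other. The log2 difference was -0.79 (SE 0.21, unadjusted p = 0.00328), which did not pass in edgeR (adjusted p = 0.298) and passed in DESeq2 (0.0258) and limma-voom (0.0481). Its pseudogene HSD17B7P2 drew 1.39% as many reads as the gene.

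DHCR7, the reductase of the last step, was at 92.2, 79.3, 54.7 and 72.4 CPM in P9, P15, P22 and P38, against 117, 108, 107 and 110.4 CPM in W19, W33, W36 and W42. The groups did not overlap, and all 4 P95H clones were lower (log2 -0.56, SE 0.15, edgeR adjusted p = 0.298, DESeq2 adjusted p = 0.0365). LSS, which closes oxidised squalene into lanosterol, was at 75.05, 108, 66.4 and 69.7 CPM in P9, P15, P22 and P38, against 112, 96.9, 113 and 122 CPM in W19, W33, W36 and W42 (log2 -0.47, SE 0.16, edgeR adjusted p = 0.347). P15 lay above W33, and the other 3 P95H clones below every WT clone.

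SQLE, squalene epoxidase and a rate-limiting step, was the exception among the enzymes. It was at 233, 311, 329 and 203 CPM in P9, P15, P22 and P38, against 193, 142, 176 and 197 CPM in W19, W33, W36 and W42 (log2 0.61, SE 0.18, unadjusted p = 0.00668, edgeR adjusted p = 0.320). Every P95H clone stood above every WT clone, with P38 and W42 closest. FDFT1, squalene synthase just before it, was at 177, 303, 144 and 193 CPM in P9, P15, P22 and P38, against 268, 235, 277 and 291 CPM in W19, W33, W36 and W42 (log2 -0.38, SE 0.21). Without P15 its groups did not overlap, and the difference was -0.63. Without P22 it was -0.25. Genes near SQLE on chromosome 8 had a median difference of 0.10 between P95H and WT clones.

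Ratios of genes within a library do not depend on scaling, and 21 of them were compared over all 70 ways to label the 8 clones. They were ratios of neighbouring enzymes, and those of INSIG1 to INSIG2, SREBF1 to SREBF2 and NR1H2 to NR1H3. The log2 ratio of SQLE to FDFT1 was 0.40, 0.04, 1.19 and 0.07 in P9, P15, P22 and P38, against -0.47, -0.72, -0.65 and -0.56 in W19, W33, W36 and W42 (difference 1.02). That of LSS to SQLE was -1.63, -1.52, -2.31 and -1.54 in P9, P15, P22 and P38, against -0.78, -0.55, -0.64 and -0.70 in W19, W33, W36 and W42 (difference -1.08). Both ratios set all 4 P95H clones on 1 side of all 4 WT clones. That gives a two-sided exact permutation p of 0.0286, the smallest these labelings allow. Neither passed over the 21 ratios (adjusted p = 0.300). A pass would have needed many of the 21 ratios at that smallest p, so the adjusted value decides little. Both ratios contain SQLE, which separated the groups on its own, so they are not separate results. The other 19 ratios overlapped between the groups.

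**Figure D2:**
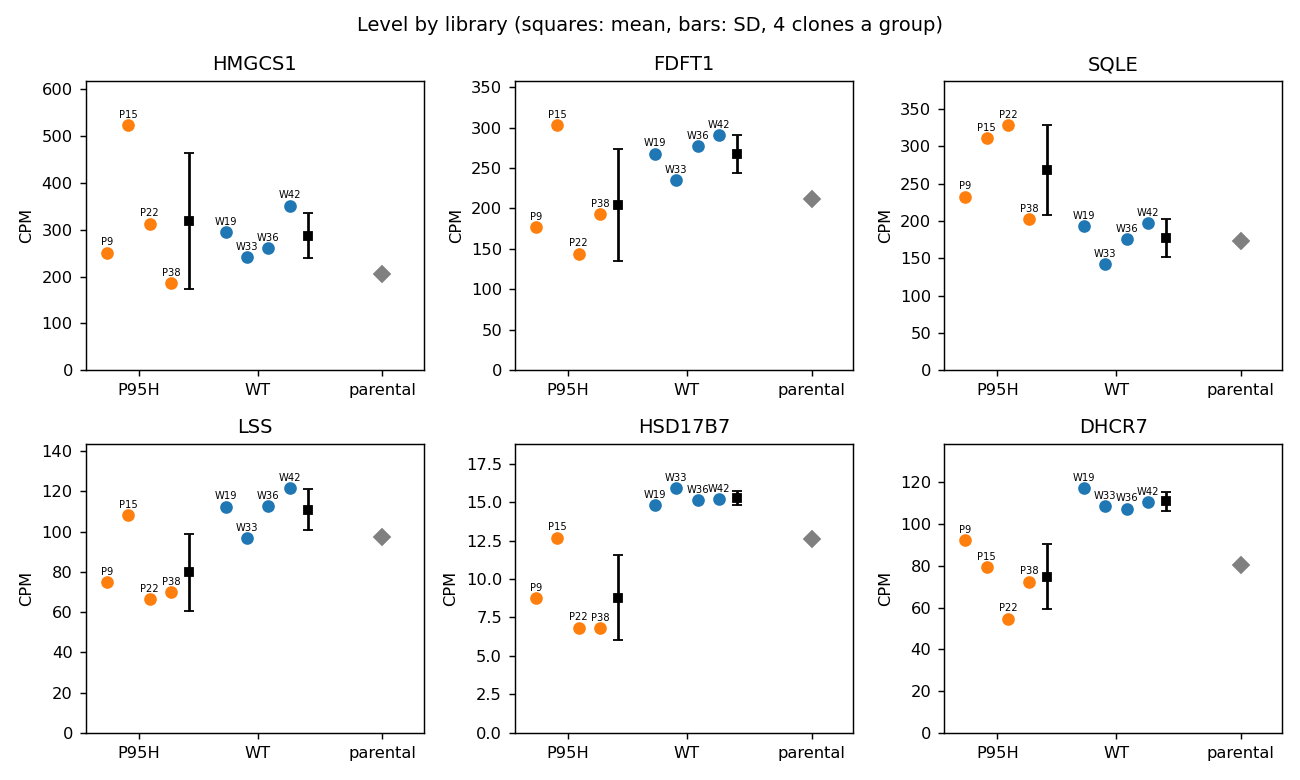
CPM of 6 enzymes in each library (y axis from 0; orange: P95H clones, blue: WT clones, grey diamond: parental library; square and bar: mean and SD of 4 clones). The groups separate for SQLE, higher in P95H clones, and for HSD17B7 and DHCR7, lower in P95H clones, while P15 lies inside or above the WT range for HMGCS1, FDFT1 and LSS.

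TM7SF2 and LBR both reduce the sterol ring after demethylation by CYP51A1, and LBR is also the lamin B receptor of the nuclear envelope. TM7SF2 was at 13.5, 10.3, 10.1 and 11.5 CPM in P9, P15, P22 and P38, against 13.8, 18.7, 14.8 and 13.6 CPM in W19, W33, W36 and W42 (log2 -0.42, SE 0.16, edgeR adjusted p = 0.359). The groups did not overlap, though P9 and W42 nearly met. LBR had 230.0 to 336 CPM in P95H clones and 227 to 336 CPM in WT clones (log2 -0.01, SE 0.15), the smallest difference among the enzymes.

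The enzymes of sterol demethylation beyond them stood lower too, without a call. MSMO1, the methylsterol oxidase, was at 36.1, 53.0, 27.1 and 35.9 CPM in P9, P15, P22 and P38, against 50.3, 52.9, 51.1 and 61.9 CPM in W19, W33, W36 and W42 (log2 -0.50, SE 0.19, edgeR adjusted p = 0.362). NSDHL, the decarboxylating dehydrogenase, was at 36.5, 40.9, 35.4 and 38.7 CPM in P9, P15, P22 and P38, against 44.8, 67.5, 44.3 and 45.7 CPM in W19, W33, W36 and W42 (log2 -0.41, SE 0.15, edgeR adjusted p = 0.351; -0.24 without W33). NSDHL separated the groups and MSMO1 did so for every P95H clone but P15.

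EBP, the sterol isomerase, had 89.5 to 132 CPM in P95H clones and 114 to 210.2 CPM in WT clones (log2 -0.43, SE 0.20; -0.21 without W33), and SC5D, the desaturase before DHCR7, 14.7 to 20.8 and 13.7 to 27.3 CPM (log2 -0.32, SE 0.21; -0.50 without W33 and -0.21 without W19). W33 was the highest WT clone for EBP and the lowest for SC5D. CYP51A1, the lanosterol demethylase, had only 14 to 70 reads per library (log2 -0.47, SE 0.39; -0.76, SE 0.24, without W33 and -0.27 without W42). Its processed pseudogenes drew more: CYP51A1P2 averaged 256 reads per library and CYP51A1P1 141, against 46.2 for the gene, so its own level is uncertain.

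For 4 enzymes (TM7SF2, NSDHL, HSD17B7 and DHCR7) every P95H clone lay below every WT clone, which is 21.1% of the 19, against 4.63% of all genes tested, and for SQLE every P95H clone lay above (3.94%). Genes around TM7SF2, NSDHL, HSD17B7 and DHCR7 had median P95H minus WT differences of -0.19, -0.11, -0.08 and -0.12. On the same scale of mean log2 CPM the members stood at -0.43, -0.40, -0.84 and -0.59. The part of the chromosome in these differences was not tested. The share of 21.1% is likewise a description, of members chosen with earlier results of these data known. The count of 4 moved with 2 libraries. Without P15 it was 12 (7.35% of all genes), with ACAT2, MVK, IDI1, FDPS, FDFT1, LSS, MSMO1 and EBP added. Without W33 it was 8 (7.56%), and without W33 and P22 together 8 (10.3%). Leaving out W33 and P22 kept 16 of 19 enzymes below 0, but most edgeR differences shrank. TM7SF2, NSDHL, HSD17B7 and DHCR7 then stood at -0.27, -0.22, -0.67 and -0.46, against -0.42, -0.41, -0.79 and -0.56 with all clones. MVD went from -0.48 to -0.18 and EBP from -0.43 to -0.13, while CYP51A1, SC5D and LBR moved further below 0.

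Genes of the SREBP switch stood nearer to their WT levels than the enzymes: 3 of 5 had a difference below 0, with a median of -0.07, and 0 were called (0 at an unadjusted p under 0.05, and 0 by DESeq2 or limma-voom). SREBF2, which encodes the SREBP of cholesterol synthesis, was at 118, 164, 101 and 105 CPM in P9, P15, P22 and P38, against 129.7, 96.7, 131 and 121 CPM in W19, W33, W36 and W42 (log2 0.04, SE 0.17). SREBF1, whose products act mainly on fatty acid genes, was at 110.2, 149.9, 90.8 and 89.5 CPM in P9, P15, P22 and P38, against 128, 110.2, 103 and 92.2 CPM in W19, W33, W36 and W42 (log2 0.03, SE 0.18). P15 was the highest of all 8 clones for both, and without it the differences were -0.14 for SREBF2 and -0.16 for SREBF1. SCAP, the escort protein, ranged from 115 to 131 CPM in P95H clones and from 113 to 148 CPM in WT clones (log2 -0.07, SE 0.10; -0.14 to -0.01 with 1 clone left out).

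INSIG1, the sterol-sensitive anchor of SCAP and itself an SREBP target, was at 50.6, 80.7, 40.8 and 51.2 CPM in P9, P15, P22 and P38, against 81.7, 59.6, 64.6 and 78.8 CPM in W19, W33, W36 and W42 (log2 -0.34, SE 0.21, edgeR adjusted p = 0.533; -0.58 without P15 and -0.23 without P22). As with LSS and FDFT1, the P95H clones other than P15 lay below every WT clone. INSIG2, its paralog, which SREBP does not induce, had 8.72 to 10.3 CPM in P95H clones and 7.96 to 11.03 CPM in WT clones (log2 -0.07, SE 0.15; -0.17 to -0.02 with 1 clone left out). The log2 ratio of INSIG1 to INSIG2 averaged 2.53 in P95H clones and 2.84 in WT clones, with overlap (exact permutation p = 0.114, adjusted p = 0.343, n = 4 each).

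Among uptake and efflux genes, 3 of 5 tested had a difference below 0 (median -0.12), and 0 were called by edgeR, DESeq2 or limma-voom. MYLIP, a ubiquitin ligase induced by LXR that degrades lipoprotein receptors, was at 61.0, 76.8, 51.5 and 48.1 CPM in P9, P15, P22 and P38, against 50.9, 38.7, 42.4 and 38.4 CPM in W19, W33, W36 and W42 (log2 0.49, SE 0.17, unadjusted p = 0.0152, edgeR adjusted p = 0.345). P38 lay below W19, and the P95H clones were otherwise above the WT clones. NPC1, which exports cholesterol from lysosomes, had 56.7 to 74.6 CPM in P95H clones and 56.4 to 64.5 CPM in WT clones (log2 0.18, SE 0.11).

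STARD4, a sterol carrier of the cytosol, was at 32.9, 35.9, 14.8 and 26.6 CPM in P9, P15, P22 and P38, against 37.4, 20.2, 32.4 and 42.6 CPM in W19, W33, W36 and W42 (log2 -0.26, SE 0.29). P22 and W33 were each far under the rest of their group, and the difference was -0.06 without P22, -0.44 without W33, -0.42 without P15 and -0.13 without W42. The LXR receptors overlapped between the groups: NR1H2 had 59.6 to 68.3 CPM in P95H clones and 56.4 to 83.6 CPM in WT clones (log2 -0.12, SE 0.14; -0.22 to -0.03 with 1 clone left out), and NR1H3 14.0 to 21.3 and 16.2 to 21.3 CPM (log2 -0.16, SE 0.17; -0.32 without P15 and -0.08 without W33).

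**Figure D3:**
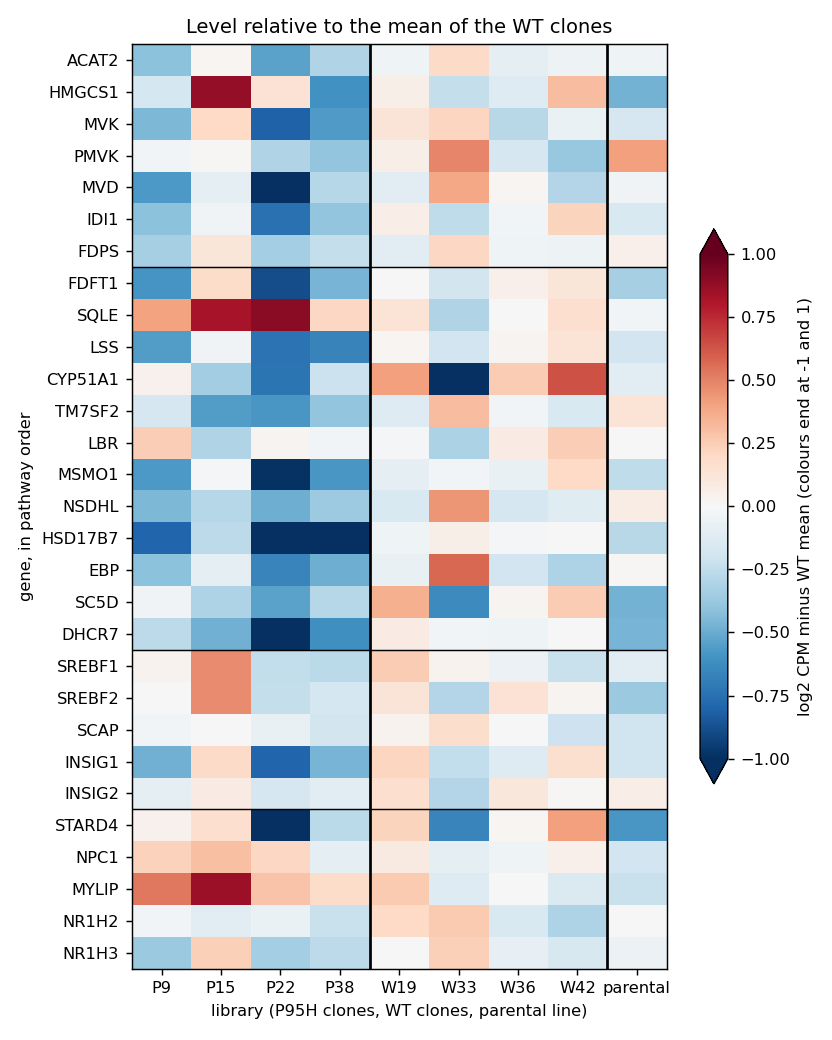
Log2 CPM of 29 members in each library minus the mean of the 4 WT clones (colour, ending at -1 and 1; rows in pathway order, columns P95H clones, WT clones and the parental library, black lines between roles and groups). P9, P22 and P38 are blue for 16, 16 and 18 of 19 enzymes, and P15 for 12 of 19, down to -0.56 for TM7SF2. W19, W33, W36 and W42 are blue for 9, 10, 12 and 10 of 19. SQLE is red in all 4 P95H clones.

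The P95H clones differed among themselves, with P15 on top and P22 at the bottom. P15 had the highest level of the 4 P95H clones for 22 of 29 members, including 7 of 7 mevalonate enzymes and 5 of 5 SREBP genes, and it was the highest for 27.9% of all genes. P22 had the lowest for 18 of 29 (14 of 19 enzymes), against 27.6% of all genes, but the highest of SQLE. The median log2 level of the 19 enzymes relative to the WT mean was -0.41, -0.04, -0.66 and -0.39 in P9, P15, P22 and P38, against 0.01, -0.03, -0.03 and -0.01 in W19, W33, W36 and W42. P15 lay just below the WT clones and the other P95H clones well below them, but P15 was uneven along the pathway. For the 7 mevalonate enzymes its median was 0.02, against -0.53 to -0.39 in the other P95H clones and -0.09 to 0.21 in WT clones. For the 12 enzymes after them it was -0.27, near that of P9 (-0.34), against -0.11 to 0.13 in WT clones.

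Set against the other 3 P95H clones, P15 had log2 differences of 1.06 (SE 0.29) for HMGCS1, 0.82 (SE 0.20) for FDFT1, 0.80 (SE 0.22) for MVK, 0.76 (SE 0.21) for HSD17B7 and 0.76 (SE 0.22) for INSIG1. edgeR called 0 members and 1 gene in all (0.00492%). At an unadjusted p under 0.05, 13 of 29 members were higher, against 4.53% of all genes, and 0 lower, against 3.24%. DESeq2 called FDFT1 and HSD17B7 (1.48% of all genes), and limma-voom called 0 members (0.334%). Genes around TM7SF2, DHCR7 and SC5D on chromosome 11 had medians of -0.44, -0.51 and -0.55 in P15 against the other P95H clones, while these members stood at -0.17, 0.15 and -0.03. These are 3 of the 7 members for which P15 was not the highest P95H clone. The part of the chromosome in their levels was not tested.

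P22 had log2 differences of -0.78 (SE 0.28) for MVD, -0.60 (SE 0.26) for MSMO1, -0.55 (SE 0.19) for DHCR7 and -1.08 (SE 0.40) for STARD4 against the other P95H clones, and 0.42 (SE 0.27) for SQLE. In edgeR 0 of 29 members were called, while 21 genes were lower (0.103%) and 71 higher (0.349%) over the whole table. At an unadjusted p under 0.05, 4 of 29 members were lower, against 3.9% of all genes, and 0 higher, against 4.63%. DESeq2 and limma-voom called 0 members as well (2.4% and 1.77% of all genes).

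W33 stood apart in the WT group, and there 4 members passed the test. Against the other 3 WT clones, NSDHL rose by 0.54 on the log2 scale (SE 0.12, edgeR adjusted p = 0.0295) and EBP by 0.72 (SE 0.19, 0.0490), while CYP51A1 was at -1.88 (SE 0.43, 0.0322) and SC5D at -0.90 (SE 0.22, 0.0399), both calls downward. The CYP51A1 pseudogenes fell as well, CYP51A1P2 at -1.64 (edgeR adjusted p = 0.0265) and CYP51A1P1 at -1.99 (0.0236). The same test called 4.76% of all genes higher and 6.34% lower in W33, so 2 of 29 in each direction is near the background. DESeq2 and limma-voom called the same 4 members, at backgrounds of 18.2% and 16.5%. With any other WT clone left out, 0 members were called, while the log2 differences stayed at 0.58 to 0.60 for NSDHL, 0.71 to 0.82 for EBP, -1.92 to -1.73 for CYP51A1 and -0.94 to -0.78 for SC5D.

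Levels in W33 went with the GC content of transcripts. Across 17554 genes, the Spearman correlation of the difference with GC content was 0.44 in W33 and -0.46 in W42, and -0.23 to 0.19 in the other 6 clones (a description, over genes that share libraries). The 9 enzymes above 0 in W33 had a median GC content of 56.0%, and the 10 below 0 of 41.3%. Genes around NSDHL, EBP, CYP51A1 and SC5D had median log2 differences of 0.39, 0.32, -0.23 and 0.10 in W33 against the other WT clones. The part of GC content or of the chromosome in the calls was not tested.

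**Figure D4:**
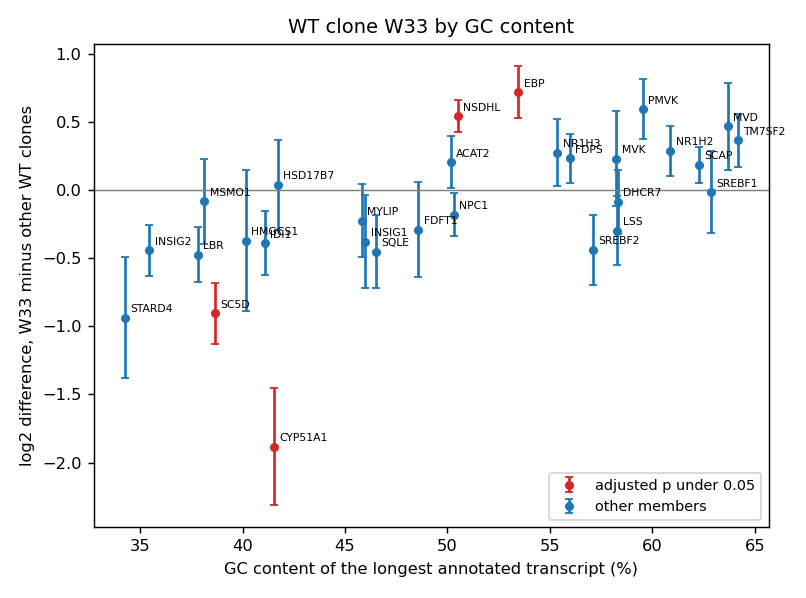
Log2 difference between W33 and the other 3 WT clones (y axis; bars: SE of the edgeR fit) against the GC content of the longest annotated transcript (x axis, percent) for 29 members. The 4 called members are red: CYP51A1 and SC5D lie low, near 40% GC, and NSDHL and EBP high, above 50%.

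In its median enzyme level the parental library lay below the WT clones and P15, and above P9, P22 and P38. That level relative to the WT mean was -0.12, against -0.03 to 0.01 in WT clones and -0.04 in P15. The parental library was below every WT clone for 8 of 29 members (14.5% of all genes) and above every WT clone for 0 (14.5%). DHCR7 was at 80.4 CPM and HSD17B7 at 12.6 CPM, both under the lowest WT clone and inside the P95H range, whereas SQLE at 173 CPM was inside the WT range. With the spread between clones used for this 1 library too, edgeR called 0 members (0 at an unadjusted p under 0.05) and 1 gene in all (0.00485%), and DESeq2 and limma-voom called 0 members.

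Exons of several members overlap those of another gene, and the kit does not mark strand. The strand setting and overlap mode of the counting were not given. Whether shared reads were counted for a member or set aside as ambiguous is therefore not known. HMGCS1 overlaps ENSG00000261604, which was at 0.97 in P15 against the other P95H clones on the log2 scale, close to the 1.06 of HMGCS1, and at 0.00 for P95H minus WT. RUSC1-AS1, opposite FDPS, was at -0.24 for P95H minus WT, IDI2-AS1, opposite IDI1, at -0.24, and TCP1, opposite ACAT2, at -0.09. LSS shares exons with ENSG00000228404 and ENSG00000223901, which averaged 36.1 and 79.3 reads per library against 2805 for LSS. MVK overlaps MMAB, SREBF1 overlaps RAI1, SREBF2 overlaps SREBF2-AS1, STARD4 overlaps STARD4-AS1, NPC1 overlaps RMC1, NR1H3 overlaps ACP2, FDFT1 overlaps ENSG00000255046, CYP51A1 overlaps CYP51A1-AS1, and TM7SF2 overlaps VPS51 on its own strand.

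Lists of related genes outside the pathway had medians nearer to 0 or above it, and of their 57 genes tested edgeR called 0, DESeq2 1, RNF145 (1.44% of all genes), and limma-voom 0. At an unadjusted p under 0.05, 2 of the 57 were lower and 4 higher, near the shares over all genes (5.65% and 6.07%). Of 15 lipogenic SREBP targets tested, 10 had a P95H minus WT difference below 0, with a median of -0.05 (1 lower and 1 higher at an unadjusted p under 0.05). FADS1, a fatty acid desaturase, averaged 183 ± 36.7 CPM in P95H clones and 121 ± 22.4 CPM in WT clones (SD, n = 4 each; log2 0.60, SE 0.18), with all P95H clones above all WT clones. ELOVL6, a fatty acid elongase, averaged 98.7 ± 6.70 and 124 ± 12.9 CPM (SD, n = 4 each; log2 -0.32, SE 0.11), with all P95H clones below. SLC25A1, the mitochondrial citrate carrier, overlapped between the groups at -0.36. All P95H clones lay below all WT clones for 1 of the 15 targets (4.63% of all genes) and above for 1 (3.94%). The genes named from each list are those with the smallest p, which favours genes that separate the groups.

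Of 12 genes that process SREBP or degrade sterol-regulated proteins, 3 were below 0 and 9 above, with a median of 0.17. RNF145, a ubiquitin ligase of the endoplasmic reticulum that acts on SCAP, was at 84.7, 86.7, 84.4 and 70.7 CPM in P9, P15, P22 and P38, against 59.2, 59.6, 59.4 and 66.4 CPM in W19, W33, W36 and W42 (log2 0.43, SE 0.10, unadjusted p = 0.00226, edgeR adjusted p = 0.286). All 4 P95H clones were above all 4 WT clones, which held for 1 of the 12 genes (3.94% of all genes). PAQR3, which tethers SCAP at the Golgi, was at 0.70 (SE 0.23) and RNF139, another ligase of the endoplasmic reticulum, at 0.23 (SE 0.12), both with overlap.

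Of 13 genes of sterol transport and storage tested, 5 were below 0, with a median of 0.04. Every P95H clone lay below every WT clone for 1 of the 13 (4.63% of all genes) and above for 0 (3.94%). SCARB1, the receptor of high-density lipoprotein, averaged 71.2 ± 10.8 CPM in P95H clones and 97.5 ± 9.24 CPM in WT clones (SD, n = 4 each; log2 -0.44, SE 0.13), without overlap. NPC2, the lysosomal partner of NPC1, was at 0.60 (SE 0.21) and LRPAP1, a chaperone of lipoprotein receptors, at -0.41 (SE 0.18), both with overlap. The isoprenoid branch had 7 of 12 genes below 0 (median -0.04; PDSS2 at -0.16, DHDDS at 0.18 and PGGT1B at 0.13), and LXR partners and targets 0 of 5 (median 0.12; LPCAT3 at 0.12, PLTP at 0.26 and RXRA at 0.07).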

How the data were processed

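RNA was measured in 9 K562 libraries. The authors deposited unnormalized read counts for each Ensembl gene ID. The submitters' processing notes list HTSeq 0.6.1p1, TopHat2 2.0.4, bcl2fastq and GRCh37. The strand setting and overlap mode were not given in the sources used here. Reads in no gene (47.6 to 49.1%), ambiguous reads (2.24 to 2.55%) and reads not uniquely aligned (5.06 to 6.06%) stayed out of library sizes. Symbols, exon lengths, GC content and gene order came from GENCODE 29 (GRCh38) by gene ID.

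The main test was edgeR 4.0.16 in R 4.3.3 (filterByExpr, TMM, robust quasi-likelihood fit, Benjamini-Hochberg adjustment over all genes, threshold 0.05). For a lone clone or the parental library the spread was taken from the clones, so that 1 library is taken to vary as they do. A prior count of 2 went into log2 CPM, and neighbours were up to 25 genes on each side with at least 5 CPM. On simulated counts the median estimated fold was near the fold put in. Changes as small as the P95H minus WT differences of the members were not simulated, so the power to call them was not checked. Alternatives were DESeq2 1.42.0, limma-voom (limma 3.58.1), other scalings and filters, a 3-group fit, no robust option, clones left out, and chromosomes 1 and 11 left out. Named were all members, up to 3 genes per further list by p, and genes that may share reads with a member. Not matched to a single ID was 1 further gene, ACACA. Members and lists were chosen with earlier results of these data known.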

Additional observations from a re-analysis of the deposited data

Results flagged for a closer look

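In 3 of 58 groups of 4 clones, 1 clone lay far from the others by Dixon's criterion (gap to the nearest clone over the range of the group), and chance gives about 1 in 20. ACAT2, the first enzyme of the pathway, was at 348 CPM in W33, against 287 to 296 CPM in the other WT clones. Genes around ACAT2 on chromosome 6 had a median log2 difference of -0.09 in W33. NSDHL, the sterol dehydrogenase, was at 67.5 CPM in W33, against 44.3 to 45.7 CPM in the other WT clones. Genes around NSDHL on chromosome X had a median log2 difference of 0.39 in W33, against 0.59 for NSDHL. NR1H3, the alpha form of LXR, was at 21.3 CPM in P15, against 14.0 to 15.04 CPM in the other P95H clones, and genes around it on chromosome 11 had a median log2 difference of 0.34 in P15.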

How the results depend on the processing

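Between P95H and WT clones edgeR called 0 genes under either other scaling, the stricter filter, the 3-group fit and the fit with no robust option. It called 2 with no filter, 1 without W19 and 5 without W33 and P22, against 261 in DESeq2 and 59 in limma-voom. Of the members, DESeq2 called 2 and limma-voom 1, and for P15 against the other P95H clones DESeq2 called 2. Members called in W33 came to 0 with W19, W36 or W42 left out, and genes called there to 500, 0 and 0. With chromosomes 1 and 11 left out, 10 of the 12 enzymes that remain were below 0. Enzymes with every P95H clone below every WT clone numbered 4 to 12 with 1 clone left out and 8 without W33 and P22, both counts chosen after seeing the data.

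Directions turned for HMGCS1 (-0.092), SREBF1 (-0.068) and SREBF2 (-0.14) in limma-voom and for PMVK (0.026) without W33 and P22. With 1 clone left out, the log2 difference ran from -0.19 to 0.35 for HMGCS1, from -0.11 to 0.081 for LBR, from -0.16 to 0.12 for SREBF1 and from -0.14 to 0.11 for SREBF2. Among log2 ratios the range was -0.097 to 0.095 for SREBF1/SREBF2, -0.099 to 0.29 for IDI1/MVD, -0.18 to 0.35 for CYP51A1/LSS, -0.38 to 0.42 for TM7SF2/CYP51A1, -0.28 to 0.31 for SC5D/EBP and -0.013 to 0.22 for NR1H2/NR1H3. The causes were not tested. No paired analysis was possible because the clones of the groups share no numbers. ABCA1 had too few reads to test, and for CYP51A1 the SE was 0.39 with all clones and 0.24 without W33.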
